A study of Homo sapiens with 3 samples.

Results

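The NME genes, NME1 to NME9, encode the nucleoside diphosphate kinase family of human cells, and they make up 9 of the 20033 protein-coding genes and of the 62663 genes of all kinds that GENCODE places on chromosomes 1 to 22, X and Y. They were taken by name. NME1 was included because the ZBTB11 peak at its promoter is one of the strongest of the list, so the genes were chosen in part from the peak values given here, and those values are a description without a test. For each gene, every ZBTB11 peak within 3 kb of any annotated transcription start site (TSS) or in the gene body was collected. The study asked where ZBTB11, a zinc finger protein that it found as a partner of the oncoprotein SET, sits on chromatin in lung cancer cells. The cells were NCI-H1299, an established human lung cancer line, wild type (WT) in genotype and untreated, and fixed with formaldehyde in all groups. The study describes this line as p53-null, so WT does not extend to that gene. Of the 3 samples, 1 was immunoprecipitated with an antibody against ZBTB11 and 1 with normal IgG as negative control, while the Input sample, which had no antibody, was not analysed here. Each group held 1 library, so no value below has a replicate check, and the intervals, all at 95%, cover counting error only.

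A nucleoside diphosphate kinase moves the terminal phosphate of one nucleoside triphosphate, usually ATP, onto a nucleoside diphosphate, and so keeps the cell supplied with GTP, CTP, UTP and the precursors of DNA. Group I of the family, NME1 to NME4, holds close relatives with the classical active site, and among these NME1 is known as a metastasis suppressor. Group II, NME5 to NME9, is more distant in sequence, and several of its members are known from cilia and sperm tails.

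The promoter sequences of the genes on which the comparison turned are shown first. They were taken from RefSeq (assembly GRCh38.p14), in which all 9 genes were found with 11 promoter windows of 300 bases, each with 250 bases before the start and 50 from the start on. Sequences run 5′ to 3′ on the strand of the gene, and capitals mark matches to CCGGAAG or CAGGAAG, the consensus of the study, on either strand (CTTCCGG and CTTCCTG when read from the other strand). NME1 and NME2 are shown as the adjacent paralogs, with a high and a much lower peak, NME7 as the only family member that could be compared between antibodies, and MRPS34 because the strong peak near NME3 lay over this neighbouring promoter instead of that of NME3. The windows were NME1 at chr17:51153309-51153608 on the plus strand, the window of NME2 that holds its peak summit at chr17:51166251-51166550 on the plus strand, NME7 at chr1:169367748-169368047 on the minus strand, and MRPS34 at chr16:1773085-1773384 on the minus strand.
NME1: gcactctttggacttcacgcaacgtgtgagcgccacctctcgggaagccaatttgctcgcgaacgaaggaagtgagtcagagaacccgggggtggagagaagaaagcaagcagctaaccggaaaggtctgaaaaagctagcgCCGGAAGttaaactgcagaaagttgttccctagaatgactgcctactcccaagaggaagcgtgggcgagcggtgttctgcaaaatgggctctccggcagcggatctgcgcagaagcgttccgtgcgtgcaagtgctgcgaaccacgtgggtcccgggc
NME2: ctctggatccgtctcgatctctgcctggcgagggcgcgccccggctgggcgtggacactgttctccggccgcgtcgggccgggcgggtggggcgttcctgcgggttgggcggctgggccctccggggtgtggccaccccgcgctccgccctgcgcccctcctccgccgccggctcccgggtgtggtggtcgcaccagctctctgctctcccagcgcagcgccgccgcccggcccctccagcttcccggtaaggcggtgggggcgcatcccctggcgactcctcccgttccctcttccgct
NME7: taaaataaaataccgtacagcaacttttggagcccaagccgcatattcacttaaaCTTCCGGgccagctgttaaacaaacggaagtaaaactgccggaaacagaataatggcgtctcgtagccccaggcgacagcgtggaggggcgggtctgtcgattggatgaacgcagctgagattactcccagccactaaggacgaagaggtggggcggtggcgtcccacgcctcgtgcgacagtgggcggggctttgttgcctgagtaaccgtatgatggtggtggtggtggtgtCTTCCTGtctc
MRPS34: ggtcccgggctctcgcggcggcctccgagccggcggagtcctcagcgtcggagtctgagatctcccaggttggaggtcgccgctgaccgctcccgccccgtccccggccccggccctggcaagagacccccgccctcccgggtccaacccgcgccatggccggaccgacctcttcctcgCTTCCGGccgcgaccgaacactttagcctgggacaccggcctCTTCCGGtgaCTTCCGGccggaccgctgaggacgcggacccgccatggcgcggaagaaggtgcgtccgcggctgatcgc

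The NME1 window held 1 CCGGAAG, at bases 143 to 149, which begins 108 bases before the start. The NME7 window held CTTCCGG at bases 56 to 62 and CTTCCTG at bases 290 to 296. In the MRPS34 window CTTCCGG stood 3 times, at bases 180 to 186, 222 to 228 and 232 to 238. No match was found in the NME2 window shown, but an overlapping NME2 window at chr17:51166161-51166460 held 1 CTTCCTG. With NME1, NME7 and this one, 3 of the 11 windows of the family held the consensus, against 21.8% of all 35116 RefSeq promoter windows. A match describes the letters and is not in itself a binding site.

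Near a TSS (within 3 kb), all 9 NME genes had a peak for ZBTB11, but so did 87.7% of all protein-coding genes, so this count does not set the family apart. The deposited list was called at a loose threshold, and 92.3% of its 346891 peaks on these chromosomes had a q-value above 0.05. A peak was described by its fragments, the number of sequenced DNA fragments stacked at its summit as recovered from the deposited values, and by its fold, which is that number over the local background with 1 added to both. The median peak of the list had 5 fragments, against a genome-wide background of 1.35. With the q-value limited to 0.05, 6 NME genes had a peak near a TSS, and 55.3% of all protein-coding genes did. With the p-value limited to 1e-05, 5 did, namely NME1, NME2, NME3, NME6 and NME7, and 46.9% of all protein-coding genes. Only NME1 and NME3 were near a peak among the 1000 with the smallest p-values, a class that 6.01% of protein-coding genes reached.

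The strongest peaks of the family spanned from 5 to 507 fragments. NME1 had 507 (464 to 553) and NME3 had 411 (372 to 453). NME7 followed with 56 (42.3 to 72.7), NME2 with 27 (17.8 to 39.3) and NME6 with 22 (13.8 to 33.3). NME9 had 8, NME5 6, and NME4 and NME8 5 each, close to the median peak of the list. In order of p-value, the ratio of fragments between neighbours was 1.23 (1.08 to 1.41) for NME1 over NME3, 7.34 (5.54 to 9.89) for NME3 over NME7 and 2.55 (1.53 to 4.38) for NME7 over NME6. NME6 and NME2 did not differ beyond counting error, with a ratio of 0.815 (0.442 to 1.49), and neither did any neighbours among NME9, NME5, NME8 and NME4, whose intervals all included 1. In group I, 3 of 4 genes kept a peak under this p-value limit, and the median was 219 fragments. In group II, 2 of 5 had one and the median was 8. Across the 17575 protein-coding genes with a peak near a TSS the median was 11. The 2 groups overlapped, since NME4 of group I had as few fragments as NME8 of group II. The values of group I also rest on NME1, chosen for its peak, and on NME3, whose peak lay over other genes. With a window of 1 kb, in which NME3 had no peak, 2 genes of group I passed the p-value limit and the median of the remaining 3 was 27 fragments, while group II stayed at 2 genes and a median of 8.

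**Figure D1:**
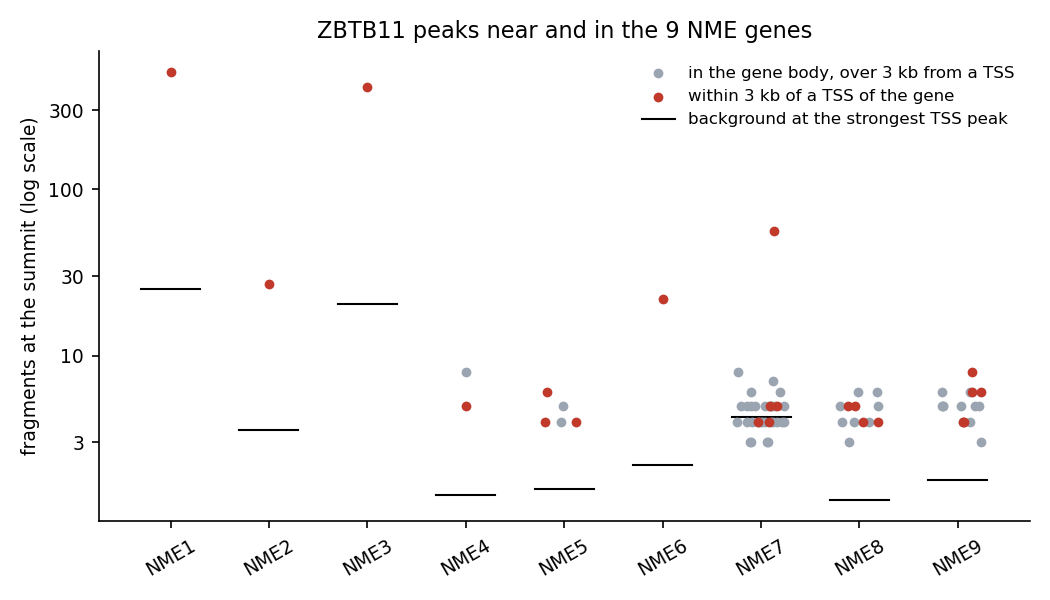
Fragments at the summit (log scale) of each ZBTB11 peak of the 9 NME genes, for peaks within 3 kb of a TSS of the gene (red) and for other peaks in the gene body (grey), with the local background at the strongest TSS peak as a bar. NME1 with 507 and NME3 with 411 fragments stand above NME7 with 56, and the peaks of NME4, NME5, NME8 and NME9 do not exceed 8. The peak drawn for NME3 covers starts of MRPS34 and EME2 and none of NME3.

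NME1, the metastasis suppressor, had a single ZBTB11 peak, at chr17:51153123-51153992 (hg38, 870 bp wide), which covered the start of the gene. By p-value it ranked 2 among the peaks on chromosomes 1 to 22, X and Y. The summit, at position 51153539, lay 20 bp upstream of the first annotated start. The fold was 19.5, the −log10 p 456 and the local background 25 fragments. The peak also covered the starts of the read-through gene NME1-NME2, which is transcribed from the NME1 promoter into NME2. With a −log10 p that exceeded that of 99.98% of protein-coding genes with a peak, NME1 had only NUF2 and RGS5 above it. By the likeness of p-value rank, the genes next to NME1 were these 2, which share the peak of rank 1 at chr1:163321397-163322223 (482 fragments, fold 22.3), and, below, HMGB1 and USPL1, which share the peak of rank 3 (473 fragments, fold 22.6), and AQR with that of rank 4 (476 fragments, fold 21.8). HMGB1 encodes an abundant chromatin protein, NUF2 a part of the kinetochore and AQR a helicase of the spliceosome. The fragments of these neighbours all lay within the interval of NME1, so the difference in fragments was within counting error. The fold of NME1 was lower, over a higher background.

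NME2, the paralog next to NME1, carried a much lower peak. Its coding sequence was identical to that of NME1 in 369 of 456 aligned bases, or 80.9%, the highest share of any pair in the family. Its only peak, at chr17:51165962-51167192 (1231 bp), had its summit in the 5′ UTR at position 51166532, 32 bp upstream of the nearest annotated start. It held 27 fragments over a background of 3.59, with a fold of 6.11, a −log10 p of 15.5 and rank 5341. NME2 stood above 71.4% of the protein-coding genes with a peak, and so in the upper part of the genes but far from NME1.

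The fragments of NME1 exceeded those of NME2 by 18.8 times (12.8 to 28.8), whereas the ratio of the folds was 3.20. The first starts of the genes lay 11876 bp apart and the summits 12993 bp apart, with 0 listed peaks between them. The peak next upstream of NME1, 5649 bp before its summit, had 5 fragments, and the peak next downstream of NME2 had 3. From the one to the other of these flanking peaks, only the NME1 and NME2 peaks had more than 5 fragments.

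**Figure D2:**
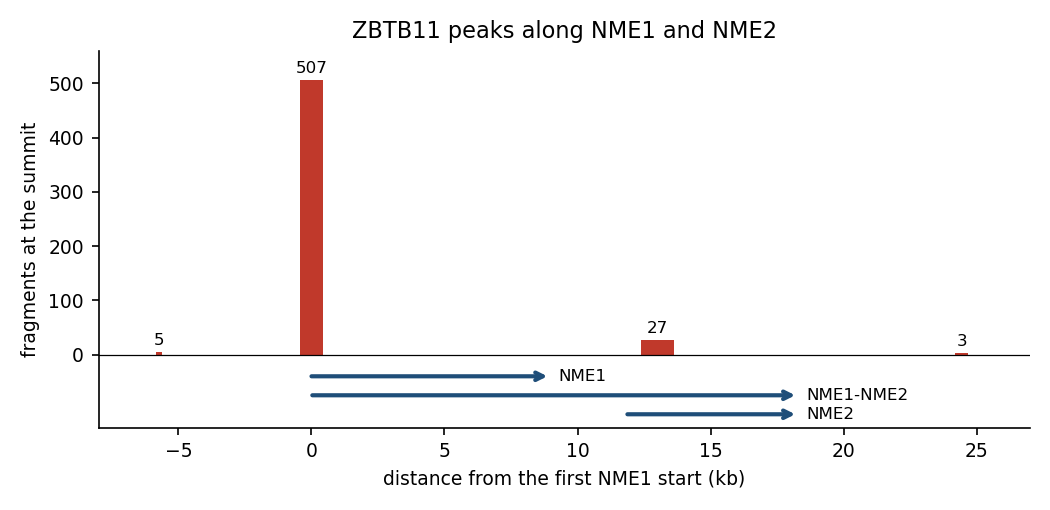
ZBTB11 peaks along NME1, NME2 and the read-through gene NME1-NME2, drawn at their positions relative to the first NME1 start (kb), with bar width equal to peak width and height equal to the fragments at the summit. Arrows show the genes in the direction of transcription, and 507 fragments at NME1 stand beside 27 at NME2, 5 upstream and 3 downstream.

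The fold ratio was smaller than the fragment ratio because the background entered the fold and was higher at NME1. All 107653 ZBTB11 peaks with a background above the genome-wide level had one that equals a whole number of fragments in a 10 kb window (within 0.1 fragments). For NME1 that number was 969 fragments, 18.5 times the genome-wide level of 52.5, and the summit pileup was 52.3% as large. For NME3 it was 788, with 52.2%, and for NME7 165, with 33.9%. For NME2 it was 139, or 2.65 times the genome-wide level, with 19.4%. On this measure over 10 kb, NME1 exceeded NME2 by 6.97 times (5.83 to 8.39). The other genes had from 56 (NME4) to 85 (NME6) fragments, or the genome-wide level (NME8). NME1 and NME3 thus had the highest backgrounds of the family beside the highest peaks, and their folds were taken over these. Per the methods each antibody was called on its own, so the 10 kb number would include the fragments of the peak itself. These backgrounds, and the ratio of 6.97, are therefore not independent of the peaks.

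NME3, whose product sits on the outer membrane of mitochondria, was near the second strongest peak of the family, but that peak did not cover its start. The peak at chr16:1772745-1773650 (906 bp) covered the starts of MRPS34, a protein of the small mitochondrial ribosomal subunit, and of EME2, a subunit of a DNA structure-specific endonuclease, which is read in the opposite direction. Its summit lay 1612 bp upstream of the nearest NME3 start and its nearer edge 1184 bp away. It had 411 fragments, a fold of 19.3, a −log10 p of 370 and rank 274. NME3 had no other ZBTB11 peak within 3 kb, and 0 peaks in its body of 1.24 kb. With a window of 1 kb in place of 3 kb NME3 had no peak, and 8 NME genes had one at all, with 77.6% of all protein-coding genes, and 4 had one with a p-value up to 1e-05, with 44.8%.

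NME6, which encodes a mitochondrial member of the family, had a peak over its start with nearly the same p-value as NME2. It lay at chr3:48301122-48302003 (882 bp), with the summit in the 5′ UTR and 74 bp downstream of a start. With 22 fragments over a background of 2.19, it had a fold of 7.20, a −log10 p of 15.5 and rank 5332. The peak also covered a start of the lncRNA ENSG00000289043. NME6 had fewer fragments than NME2 but a higher fold, on the lower background.

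NME7, known as a component of the γ-tubulin ring complex that seeds microtubules, had a peak at a promoter shared with a second gene. The peak at chr1:169367509-169368597 (1089 bp) had its summit 88 bp upstream of an NME7 start and also covered the start of BLZF1, a Golgi protein read in the opposite direction. With 56 fragments over 4.26, its fold was 10.8, its −log10 p 42.6 and its rank 2422, above 84.9% of protein-coding genes with a peak. NME1 exceeded it by 9.05 times in fragments (6.86 to 12.2). Of the 5 family members under the p-value limit of 1e-05, NME7, NME6, NME2 and NME1 thus had it over a start of their own, and NME3 did not.

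The other 4 genes had only low peaks. NME9, a member with a thioredoxin domain, had a peak over its start, with 8 fragments, a fold of 3.24, a −log10 p of 4.0 and a q-value of 0.0471. NME4, which encodes a kinase of mitochondria, had 5 fragments at 317 bp upstream of a start, with a −log10 p of 2.43 and a q-value of 0.577. A second peak of NME4, in an intron, had 8 fragments and a q-value of 0.0242, but its edge lay 3136 bp from the nearest NME4 start and so outside the window. These peaks had fewer fragments than the median of 11 over the strongest peaks of protein-coding genes.

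NME5 and NME8, known from the axoneme of cilia and sperm tails, had no peak with a q-value of 0.05 or less. NME5 had 5 peaks, of 4 to 6 fragments. The peak with 6 lay beyond the 3′ end of the gene, near the start of a short transcript, and the one upstream of the first start, at chr5:138139874-138140131, had 4. NME8 had 12 peaks of 3 to 6 fragments, and the one upstream of its first start, 2267 bp away, had 4. The p-values of NME5 and NME8 exceeded in strength those of 23.3% and 11.7% of the protein-coding genes with a peak, and that of NME4 10.6%. The peaks next to the limit of 3 kb were all low. Just inside, with edges at 2412 and 2324 bp, lay peaks of NME9 with 4 and NME7 with 5 fragments, and just outside, at 3136 and 3235 bp, those of NME4 with 8 and NME8 with 3. The NME4 peak had the smallest p-value of these, and with its q-value of 0.0242 a slightly wider limit would have added NME4 to the 6 genes under the q-value limit.

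**Figure D3:**
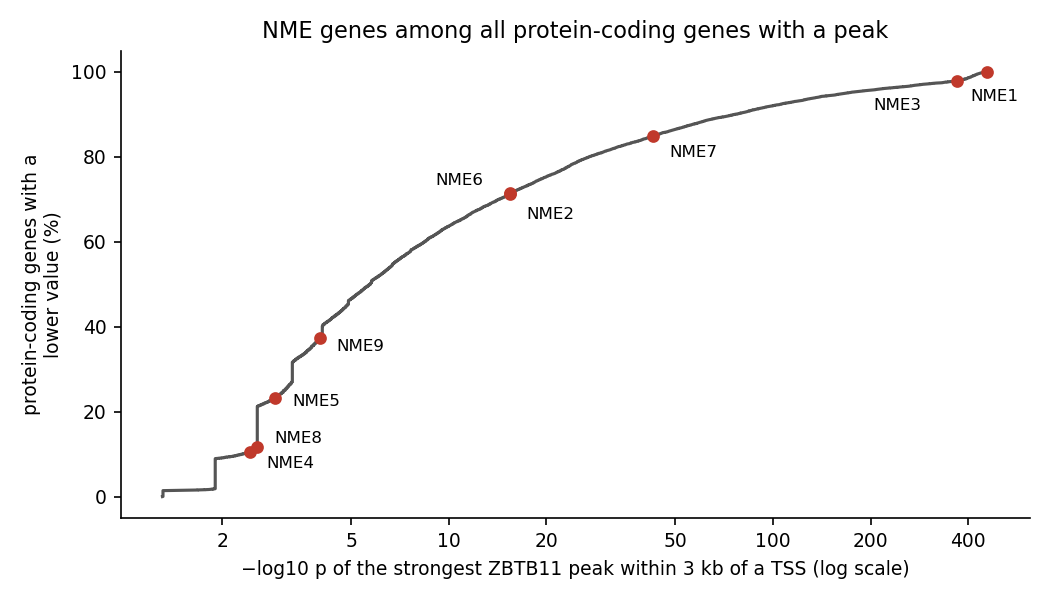
Share of protein-coding genes with a lower −log10 p (%) against the −log10 p of the strongest ZBTB11 peak within 3 kb of a TSS (log scale), over the 17575 protein-coding genes with such a peak (line) and for the 9 NME genes (points). NME1 lies at 99.98% and NME3 at 97.9%, while NME4 and NME8 lie at 10.6% and 11.7%. The peak used for NME3 covers starts of MRPS34 and EME2 and none of NME3.

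Together the genes had 74 peaks near a TSS or in the body, of which 22 were near a TSS and 68 in a body. Of the 74, 69 had 8 fragments or fewer and 9 had a q-value of 0.05 or less. The bodies held 16.2 peaks per 100 kb over their 421 kb, and those of all protein-coding genes 12.8. Long genes held most of them, with 35 peaks in NME7 (235 kb), 15 in NME9 and 11 in NME8, whereas NME1, NME2, NME4 and NME6 had 1 each. In every body, the peaks more than 3 kb from a TSS of the gene had 8 fragments or fewer, so the high values of the family all lay near a TSS.

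The IgG list held peaks on only 4 of the 24 main chromosomes, 1, 10, 21 and Y, and NME7 was the only NME gene on one of them. At its promoter the IgG list had a peak of 6 fragments at chr1:169367765-169368027, with a −log10 p of 2.95, under the ZBTB11 peak of 56. The ratio of ZBTB11 to IgG was 9.33 (4.03 to 26.5). An IgG peak within 3 kb of a TSS was found for 68.7% of the 3011 protein-coding genes of chromosomes 1, 10 and 21. This ratio was not scaled for the depth of the libraries, which the lists do not give directly. The recovered genome-wide background was 1.35 fragments for ZBTB11 and 1.55 for IgG. With each pileup taken over the background of its own library, the ratio of ZBTB11 to IgG at the NME7 promoter was 10.7. The interval compares these 2 libraries and not the antibodies, for which there was no replicate.

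Along the body of NME7 the peaks of both antibodies were low. There were 35 ZBTB11 and 17 IgG peaks, a ratio of 2.06 (1.12 to 3.92) that compares with 1.79 over the bodies of all chromosome 1 protein-coding genes. Apart from the promoter peak, the ZBTB11 peaks had 3 to 8 fragments with a median of 4, and the IgG peaks 4 to 7 with a median of 6. An IgG peak overlapped 3 of the 35 from ZBTB11, the promoter peak included. The share of overlap over other genes was not computed, so this count is a description only. The numbers per 100 kb, 14.9 for ZBTB11 and 7.22 for IgG, compare with 12.7 and 7.11 over all protein-coding genes of the chromosome. Peaks in the body with a q-value up to 0.05 numbered 3 for ZBTB11, the promoter peak included, and 0 for IgG. In the lists as a whole, 92.3% of ZBTB11 and 95.4% of IgG peaks had a q-value above 0.05, so these counts do not set NME7 apart. Whether the other NME peaks were also above IgG was not tested, since the IgG list held no peak on their chromosomes.

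**Figure D4:**
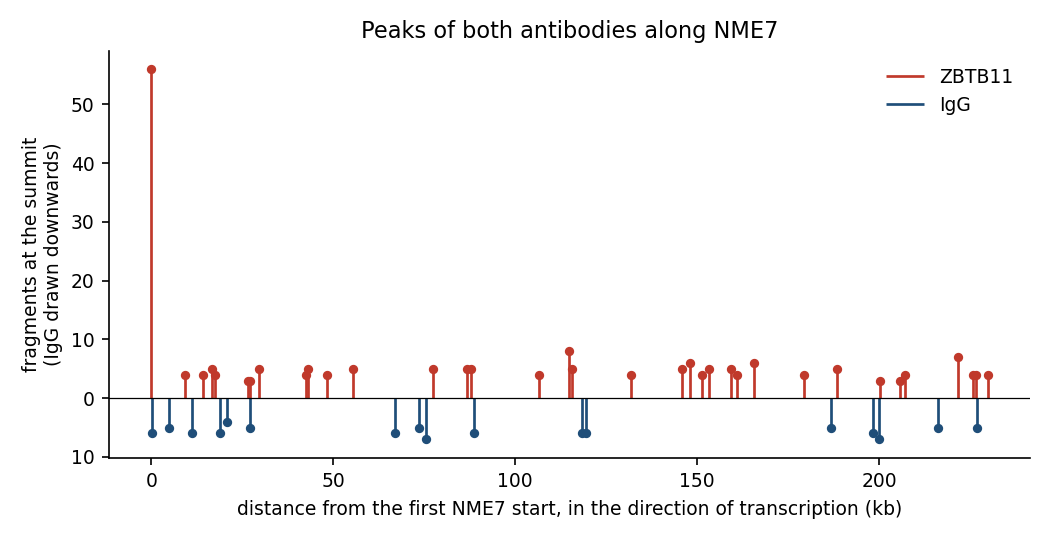
Fragments at the summit of each ZBTB11 peak (up) and IgG peak (down) of NME7 against the distance from its first start in the direction of transcription (kb). The ZBTB11 peak with 56 fragments stands over the promoter and an IgG peak with 6 lies under it, while the other ZBTB11 peaks reach 8 and the IgG peaks reach 7.

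The highest peak of the family had no consensus at its summit. Within 50 bp of the summit, CCGGAAG or CAGGAAG stood in 2 of the 9 strongest peaks of the NME genes, those near NME3 and NME7, compared with 14.7% of the 15435 strongest promoter peaks of protein-coding genes and 24.3% of those whose p-value was at most 1e-05. The peak near NME3 had 3 CCGGAAG, with centres at −23, −13 and 29 bp from the summit, which are the matches in the MRPS34 window printed above. NME7 had 1, at −47 bp. NME1 had none within 50 bp, and its only match, the one printed above, had its centre at −85 bp, at chr17:51153451-51153457. In the list at large, 44.6% of the promoter peaks among the 1000 smallest p-values held the consensus within 50 bp, so NME1 was one of the many strong peaks that did not.

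In NME2 the only match in the peak, a CAGGAAG on the minus strand, was centred 286 bp from the summit. The peaks of NME4, NME5, NME6, NME8 and NME9 had none. The shorter core GGAAG, which is part of the consensus, was found on either strand within 50 bp of the summit in NME1 (1), NME2 (2), NME3 (4), NME4 (1), NME6 (2) and NME7 (1). It stood in 43.4% of all promoter peaks. The share was 56.2% for those with a p-value up to 1e-05 and 72.0% for those among the 1000 smallest p-values. The absence of a match says only that these letters were not in the window.

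The peaks also differed in base composition. CpG dinucleotides numbered 13.6 per 100 bp in the peak near NME3, 10.6 in NME2, 8.16 in NME6, 6.55 in NME1, 5.91 in NME9 and 4.96 in NME7, against a median of 6.36 over all promoter peaks. Over promoter peaks in general, the median was 8.04 for those with a p-value up to 1e-05 and 2.10 for the others, and the median share of G and C within 50 bp of the summit was 68.3% and 53.5%. NME4, NME5 and NME8 had 1.16, 1.55 and 0.775. The strongest peaks of these 3 genes, which covered no annotated start, thus had the fewest CpG. The share of G and C within 50 bp of the summit ran from 29.7% in NME5 to 76.2% in NME6, with 63.4% in NME1 and 73.3% in NME2. Within the family, NME2 and NME6 had more G and C than NME1 on far lower peaks. Whether base composition had a part in the height of the peaks was not tested.

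The summits lay in sequence without exact copies. All 71 stretches of 31 bases within 50 bp of the summit occurred once in the genome for each of the 9 strongest peaks. Copies with mismatches were not searched.

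Other genes of nucleotide supply were described beside the NME genes, from a list of 25 nucleotide kinases and enzymes of deoxynucleotide metabolism. With the p-value limited to 1e-05, 17 of the 25 had a peak near a TSS, which is 68.0% and lies above the 46.9% of all protein-coding genes, and 0 were near one of the 1000 peaks with the smallest p-values. The median −log10 p was 11.4 over the 24 genes with a peak, against 5.73 over protein-coding genes. DGUOK, the mitochondrial deoxyguanosine kinase, had 130 fragments (rank 1006). ITPA, which removes inosine triphosphate, had 116, TK2, the mitochondrial thymidine kinase, had 82, and RRM2B, a ribonucleotide reductase subunit, had 63. TK1, the cytosolic thymidine kinase, had no peak near a TSS. None of these reached NME1 or NME3, and all 4 had more fragments than NME7, although the 63 of RRM2B lie within its interval. Among genes of the list on chromosome 1, GUK1 had 39 fragments and no IgG peak near a TSS, and CMPK1 had 25 against 6 for IgG, and AK4 had 18 against 11. CTPS1 had 8 in each list and AK5 had 7 against 9.

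NME1 is also known as a nuclease of the SET complex, an assembly that nicks DNA in cells attacked by cytotoxic lymphocytes. Of its 6 genes 3 had a peak near a TSS with a p-value up to 1e-05, a share near the 46.9% of all protein-coding genes. These 3 include NME1, which was chosen in part for this peak. APEX1, a base excision repair endonuclease, had 155 fragments with a fold of 21.1 (rank 792), and ANP32A had 16. HMGB2, with 7 fragments, SET itself, with 9, and TREX1, a 3′ exonuclease, with 5, did not pass that threshold. Within the complex NME1, chosen in part for its peak, had the highest one, and SET, the partner of ZBTB11, had one of the low ones. None of the 6 lies on a chromosome with IgG peaks.

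**Figure D5:**
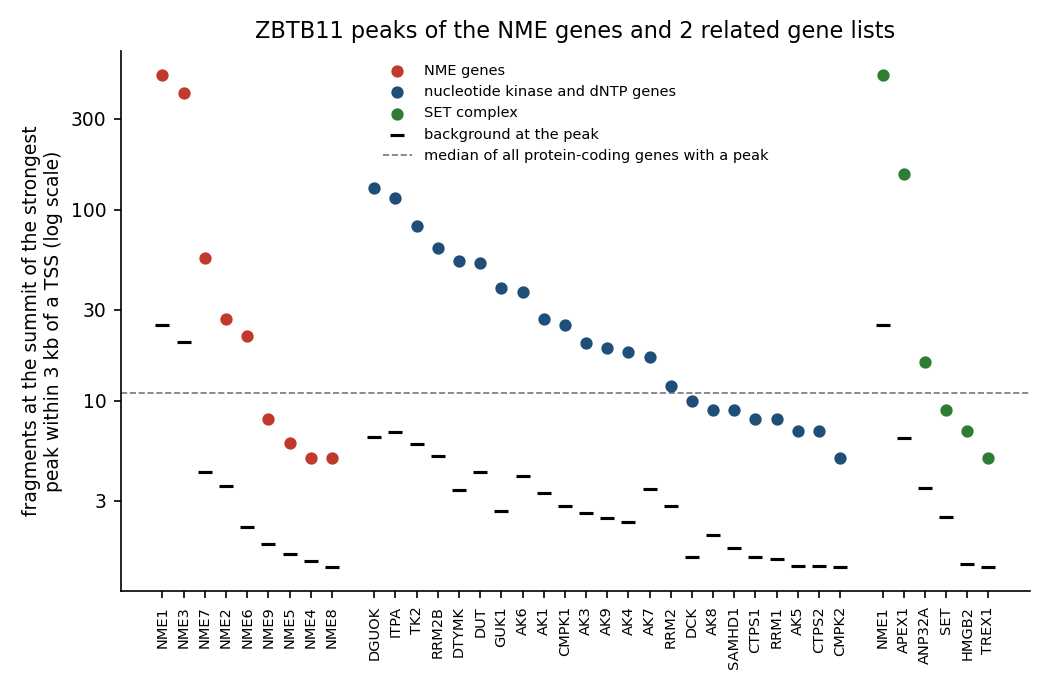
Fragments at the summit of the strongest ZBTB11 peak within 3 kb of a TSS (points, log scale) for the NME genes, the nucleotide kinase and dNTP genes with a peak (without 1 gene that is not reported here) and the SET complex genes, with the local background of each peak (bars) and the median of 11 over protein-coding genes with a peak (dashed line). NME1 (507) and NME3 (411) lie above DGUOK (130), and APEX1 (155) is next to NME1 within the SET complex. The peak drawn for NME3 covers starts of MRPS34 and EME2 and none of NME3.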

How the data were processed

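ChIP-seq peak lists of 1 ZBTB11 and 1 IgG library were used, with groups taken from the sample titles. Per the methods, the authors used BWA to align paired-end reads to hg38, and MACS to call peaks for each antibody on its own at a p-value below 0.05. The deposited fold enrichment is a ratio of the summit to the local background. The deposited −log10 p and −log10 q are logarithms of a p-value and a q-value, and the deposited score was not used. From fold and p-value, the fragments and background at each summit were solved for a Poisson background (pseudocount 1), which matched 100% of peaks within 0.001, and the step was tested on simulated data. Peaks outside chromosomes 1 to 22, X and Y (1501 ZBTB11, 1165 IgG) were left out.

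TSSs came from GENCODE release 44. The strongest peak was the one with the smallest p-value. Fragments carry exact Poisson intervals, and ratios of fragments or peaks carry exact conditional ones. With 1 library per group no test across samples was possible. The members, the gene lists and the alternatives were chosen with earlier results of these data known. All NME genes are named, with genes whose start lies under their strong promoter peaks, up to 3 genes next to NME1 on each side by rank, the 4 strongest genes of the nucleotide list and those without a peak, and all genes of the SET complex. GUK1, CMPK1, AK4, CTPS1 and AK5 were named after their values were seen. Another gene of the nucleotide list entered its counts but is not reported here. Python 3.11.15, pandas 2.3.3, scipy 1.17.1, pysam 0.24.0 and Biopython 1.88 were used.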

Additional observations from a re-analysis of the deposited data

How the results depend on the processing

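Of 30 alternative settings over 12 results, 22 left the value within 1.5 times the one given, or within counting error, and 8 moved it. A turn of direction was not looked for. Restricting the 5 NME genes with a p-value of 1e-05 or less to the 1000 smallest p-values left 2. The NME1 fold of 19.5 became 375 over the genome-wide background, and the NME1 rank of 2 became 412 by fold and 5 by fragments. The NME1 to NME2 ratio of 18.8 became 3.20 by fold. Peaks in the gene bodies fell from 68 to 8 with the q-value limited to 0.05, and NME genes with the consensus rose from 2 at the summit to 4 over the whole peak. In 2 settings chosen after seeing the data, a window of 1 kb took the median of group I from 219 to 27 fragments and left that of group II at 8. These follow from how the alternatives are built. No paired analysis was possible because only 1 library stands in each group. No replicate could be left out for the same reason. Depth limits the low peaks most: 5 fragments carry an interval of 1.62 to 11.7, so differences among NME4, NME5, NME8 and NME9 were not detectable.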

Other observations

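The family also has 4 annotated pseudogenes, of which 2, NME2P3 and NME1P1, had a ZBTB11 peak within 3 kb. Of all protein-coding genes 87.7% had one, and the share over all pseudogenes was not computed. The highest of these peaks had 5 fragments, the same as the median peak of the list and as the strongest peaks of NME4 and NME8.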
